A study of Bos taurus with 2 samples.

Results

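The CpG-dense windows described here are the 1 kb pieces of the inner pseudoautosomal region (PAR) of the cattle Y chromosome that hold at least 40 CpG sites. The inner PAR was taken as the stretch from 850001 to 6822000 of chromosome Y, numbered from its short-arm tip in the study's telomere-to-telomere assembly, and was cut into 5972 windows. Of these, 165 (2.76%) were CpG-dense, and they held 9426 of the 110699 CpGs, or 8.51%. The rule itself counts CpGs and uses no methylation value, but it was set with earlier results of these data known.

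The study sequenced lung DNA of cattle (Bos taurus) on PacBio and on Oxford Nanopore Technology (ONT) instruments, with 1 library per platform. The animal was a fetal male F1 of a Wagyu sire and a Charolais dam, and no treatment was applied. Both platforms read the same sample according to the methods, so they are repeat measurements of 1 animal and not biological replicates. No test was therefore made, and every difference below is a description of these libraries. Lung is a mixture of cell types, and a level is an average over its cells.

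In mammals most CpGs are methylated, and methylated cytosine is lost over evolutionary time, which leaves CpGs sparse. CpG islands are dense exceptions that usually stay unmethylated and often hold the start of a gene, while dense stretches within or at the end of genes can be methylated. The PAR is the part of the Y that still pairs and exchanges sequence with the X in male meiosis, so its genes are present on both chromosomes. Reads of the X and Y copies are therefore nearly alike, and a level in the PAR may average over both copies, which cannot be told apart in these files.

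The methylation level of a window was the mean over its CpGs, in percent. The PacBio value was the modification score of each CpG and the ONT value was the mean of its 2 strand rows. All CpGs of the inner PAR had at least 10 PacBio reads. The dense windows had a median PacBio depth of 73 reads per CpG, with a range of 14 to 132, against 81 in the 5694 windows with 5 to 39 CpGs. The ONT file gives no read count, so the ONT depth is unknown. The PacBio score did not fall below 1.7% at any CpG of a low window. Whether this is the score of unmethylated DNA on this platform was not tested.

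Most dense windows fell into a low and a high group, of which the low group alone was set apart by a gap in level. On PacBio, 39 windows (23.6%) were low, defined as under 20%, 117 were high at 60% or more, and 9 lay between. Over all 5859 windows of the inner PAR with at least 5 CpGs, 1.04% were low on PacBio. High windows were 70.9% of the dense windows and 91.7% of the 5694 windows with 5 to 39 CpGs. The low windows had a median of 4.0% and reached at most 12.1%, while the next window above them stood at 21.3%. The high windows had a median of 89.9%, and 58 of them were at 90% or more, as were 984 of the 5694 windows with 5 to 39 CpGs. The lowest high window stood at 60.02% and the highest of the 9 between at 56.8%, so the border there is only the class limit. On ONT, 40 windows were low (24.2%, against 1.23% of all windows), 19 were intermediate and 106 were high. All 39 windows low on PacBio were low on ONT.

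CpGs within a window differed more in high than in low windows at the median. The standard deviation over the CpGs of a window had a median of 3.70 percentage points in the low windows, with a highest value of 23.0, and of 10.2 in the high ones, with a highest value of 34.3. Of the 3151 CpGs in low windows, 96.0% were under 20% on PacBio. Of the 5842 CpGs in high windows, 82.3% were at 80% or more and 0.719% were under 20%. The windows with 5 to 39 CpGs had a median of 81.8% on PacBio and 71.0% on ONT. On PacBio 22 of them were low and 452 intermediate, and on ONT 32 were low and 1007 intermediate (17.7%).

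**Figure D1:**
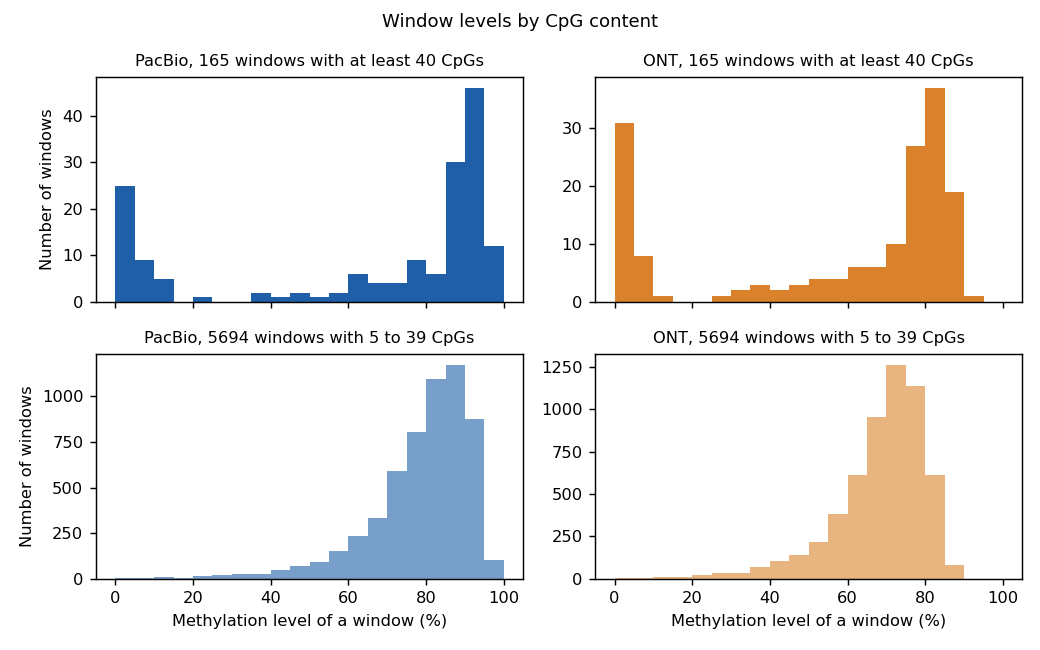
Number of 1 kb windows (y axis) by methylation level in percent (x axis, steps of 5 points), for the 165 CpG-dense windows (top) and the 5694 windows with 5 to 39 CpGs (bottom), PacBio left and ONT right. The dense windows form a low group of 39 on PacBio and 40 on ONT beside a high group, and the other windows have 1 main peak at high levels, with 22 low windows on PacBio and 32 on ONT.

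The share of low windows differed between classes of CpG content. On PacBio it was 8.60% of 93 windows with 40 to 49 CpGs, 20.7% of 29 windows with 50 to 59, 23.5% of 17 windows with 60 to 79, and 80.8% of 26 windows with 80 or more. Among the windows with 30 to 39 CpGs, just short of the rule, 6 of 382 were low (1.57%). At the edge of the rule itself, 2 of 12 windows with exactly 40 CpGs were low and none of 17 windows with 39 were, and their medians were 87.6% and 85.3%. A high CpG content did not always go with a low level. The window 1234001-1235000, with 94 CpGs inside ZBED1, was at 96.2%, the highest of all described, and its neighbour 1233001-1234000 with 106 CpGs was at 95.1%.

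The 5 windows with the most CpGs were all low, and each touched or lay beside the start of a gene. The window 1292001-1293000 at LOC132344373 held 132 CpGs and stood at 3.38% on PacBio and 1.23% on ONT. The window 6537001-6538000 at TBL1X held 128 CpGs and stood at 6.47% and 1.31%. The window 1775001-1776000 at PRKX held 125 CpGs and stood at 3.92% and 1.18%. Next came the windows 1248001-1249000 at DHRSX and ZBED1, with 124 CpGs at 6.59% and 2.997%, and 1293001-1294000 at LOC132344373, with 117 CpGs at 4.18% and 1.46%.

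Gene starts were taken from the study's annotation table of the cattle Y, as the end of the gene that its strand makes the 5′ end. A window counted as at a start if it came within 1 kb of it. The annotation was read for 160 dense windows, because 5 windows next to a gene that is not reported here entered the counts of levels only. Of the 160 windows, 28 (17.5%) were at a protein-coding gene start, against 1.01% of the 5828 windows of the inner PAR. Of those 28, 26 were low on PacBio. Seen from the other side, 26 of the 38 low windows (68.4%) were at a protein-coding start, and 1 of the 113 high windows was.

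The table holds 23 protein-coding genes that start in the inner PAR, at 22 distinct positions. A dense window was present at 18 of these genes, and at 17 of them at least 1 was low. The 17 genes were DHRSX, ZBED1, LOC132344373, CD99, GYG2, ARSD, ARSH, ARSL, MXRA5, PRKX, NLGN4X, PUDP, STS, PNPLA4, LOC101902122, ANOS1 and TBL1X. XG had a dense window at its start that was not low. The other 5 genes, BOS2D in 2 copies and OBP in 3 copies, had no dense window at their starts.

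**Figure D2:**
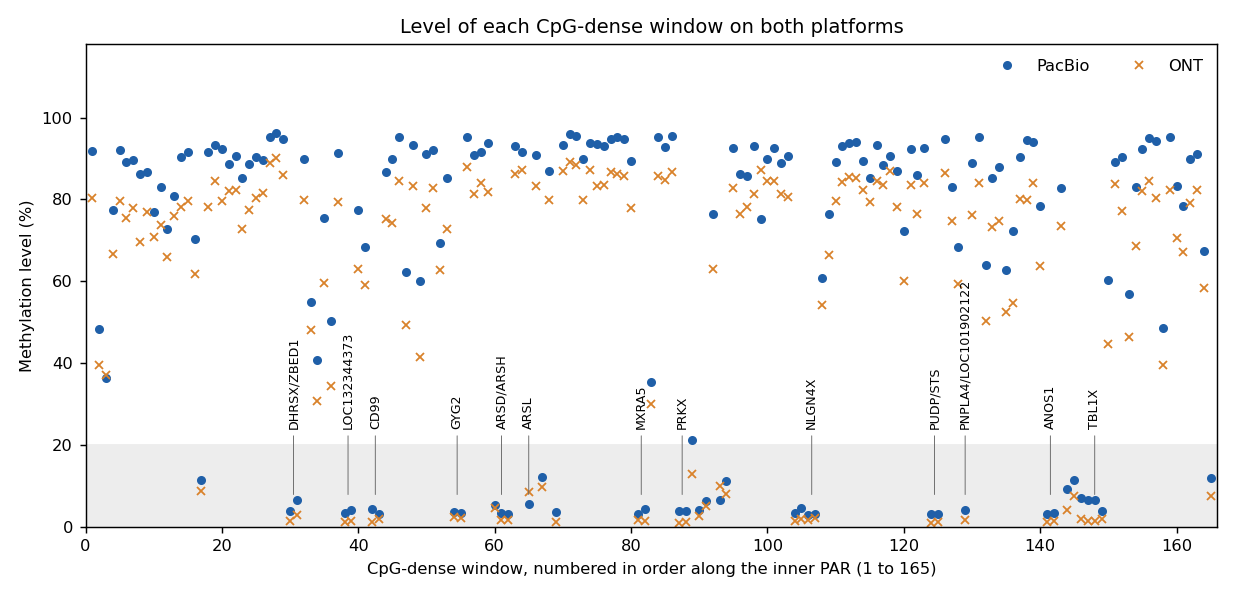
Methylation level in percent (y axis) of each of the 165 CpG-dense windows in their order along the inner PAR (x axis), with PacBio as dots and ONT as crosses. The grey band marks levels under 20%, and names mark low windows at protein-coding gene starts, which stand at 2.94% to 6.59% on PacBio.

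On PacBio the 5 lowest windows lay in NLGN4X, CD99, ANOS1 and ARSD, while on ONT the lowest described was 1774001-1775000 at PRKX, at 0.974%. NLGN4X encodes a neuroligin, an adhesion protein of synapses. Its window 3808001-3809000 was the lowest of the 165 on PacBio at 2.94%, with a standard deviation of only 0.364 points over 46 CpGs, and stood at 1.7% on ONT. The window 1320001-1321000 in CD99, which encodes a surface glycoprotein of white blood cells, was at 3.07% and 2.02%. The window 5894001-5895000 in ANOS1, the gene of the extracellular protein anosmin, was at 3.08% and 1.21%. A further window of NLGN4X, 3809001-3810000, was at 3.12%, and 1435001-1436000 at the start of ARSD was at 3.17%. These levels differ by less than the counting error at their depth: the 95% Wilson interval of the NLGN4X window was 0.268% to 8.10%, with the mean read count of its CpGs taken as the number of independent calls.

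To find how far each unmethylated stretch ran past the window borders, CpGs were followed in both directions until 3 in a row were at 50% or more on PacBio, and stretches with at least 20 CpGs under 20% were kept. Apart from the gene that is not reported, 37 such low stretches were found, and 22 of them met a dense window. Of these 22, 13 held or lay within 1 kb of a protein-coding start. The 13 had a median length of 2988 bp and a median of 217 CpGs. The other 9 were shorter, with a median of 1189 bp and 55 CpGs. None of the 15 low stretches without a dense window was at a protein-coding start.

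The low stretch reached further into the gene than upstream of it. At the 15 distinct starts that lay inside a stretch, it ran a median of 576 bp upstream (range 99 to 2947) and 2142 bp downstream (range 872 to 4435), and the downstream part was the longer at 13 of them. In steps of 500 bp over the 16 starts with a low dense window, the PacBio median was 84.2% at 1750 bp upstream and 5.06% at 250 bp upstream. It was 3.38% at 250 bp into the gene, 3.16% at 1250 bp, 51.1% at 2250 bp and 84.7% at 3750 bp. ONT showed the same course at lower levels, with 70.4% at 1750 bp upstream, 1.45% at 250 bp into the gene and 74.1% at 3750 bp.

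**Figure D3:**
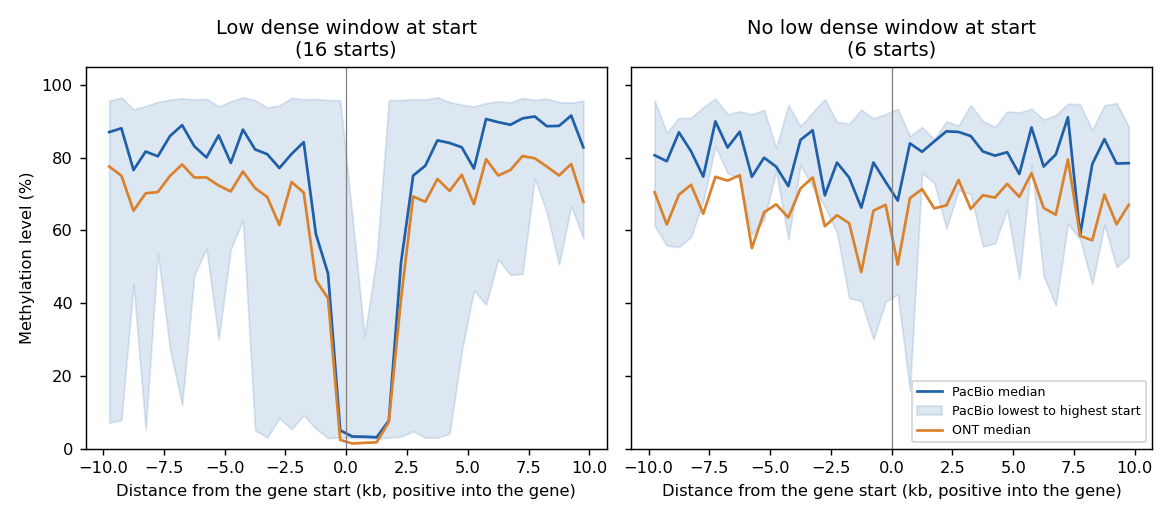
Methylation level in percent (y axis) by distance from the gene start in kb (x axis, positive into the gene), in steps of 500 bp. Lines are medians over the starts on PacBio and ONT and the shaded band runs from the lowest to the highest start on PacBio, for the 16 starts with a low dense window (left) and the 6 without (right). On the left the PacBio median is 3.38% just inside the gene, and on the right it is 68.2%. The starts were grouped by the PacBio level of windows at the start, so this difference follows from the grouping.

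At the outer end of the region, DHRSX and ZBED1 shared 1 start in the table. DHRSX encodes a dehydrogenase/reductase, and ZBED1 a zinc finger protein derived from a transposase. Their low stretch ran from 1246088 to 1248669 with 247 CpGs at 5.81% on PacBio and 2.80% on ONT. Inside the gene bodies, over 5 kb from the start, the level was 85.6% for DHRSX and 91.3% for ZBED1 on PacBio. The stretch at LOC132344373, a gene with no assigned name, ran from 1290914 to 1294082 with 295 CpGs at 4.73% and 2.15%.

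CD99 and GYG2 were alike in their levels. The low stretch of CD99 ran from 1318958 to 1321521 with 179 CpGs at 5.57% on PacBio and 3.20% on ONT. It also held the start of the long non-coding RNA LOC104970645, the only one of 23 genes of other types (tRNAs, small RNAs, long non-coding RNAs and pseudogenes) that had a dense window at its start. GYG2 encodes glycogenin, the protein primer of glycogen synthesis. Its stretch ran from 1387969 to 1391357 with 213 CpGs at 5.04% and 3.81%.

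ARSD, ARSH and ARSL are arylsulfatase genes, which encode enzymes that cleave sulfate esters. Their annotated intervals overlap: ARSD and ARSH at their starts, and ARSL with its start inside ARSH. ARSD and ARSH run in opposite directions, and 1 low stretch from 1432767 to 1436132 covered both starts, with 177 CpGs at 5.94% on PacBio and 4.38% on ONT. It held 3 adjacent dense windows at 5.26%, 3.46% and 3.17% on PacBio. The stretch of ARSL was the shortest at a start, with 58 CpGs over 1336 bp from 1458583 to 1459917. It was also the highest, at 11.5% on PacBio and 12.2% on ONT, and its dense window 1459001-1460000 was one of 4 dense windows where ONT read above PacBio (8.57% against 5.50%).

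MXRA5 encodes a protein of the extracellular matrix. Its low stretch ran from 1592120 to 1595106 with 213 CpGs at 4.06% on PacBio and 1.96% on ONT. Within the gene, 11 further dense windows stood between 89.4% and 96.0% on PacBio and between 77.8% and 89.3% on ONT. They included the 5 adjacent windows 1580001-1585000, with 282 CpGs at a mean of 94.2% and 85.1%, which tied with the run at TBL1X as the longest run of adjacent dense windows. MXRA5 held dense windows at both ends of the range of levels.

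PRKX encodes a protein kinase of the cyclic AMP-dependent family. Its stretch was the densest at a start, with 307 CpGs from 1773279 to 1776416, or 97.8 per kb, at 4.61% on PacBio and 1.87% on ONT. The third window of its run, 1776001-1777000, held the edge of the stretch and averaged 21.3% on PacBio and 12.9% on ONT with a standard deviation of 34.9 points over its CpGs. A second low stretch from 1777920 to 1779107, 2800 bp from the start of PRKX, held 62 CpGs at 4.95% and 3.78%. The 1503 bp between them held 20 CpGs at 83.9% and 62.7%.

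The NLGN4X stretch was long and one-sided. It ran for 4536 bp from 3805435 to 3809969 with 300 CpGs at 3.62% on PacBio and 2.03% on ONT, of which 99 bp lay upstream of the start. All 4 adjacent dense windows in it were low, at 3.27%, 4.63%, 2.94% and 3.12% on PacBio. Over 5 kb from the start, the body of this 395 kb gene was at 77.5% on PacBio.

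PUDP and STS are neighbours in opposite directions with overlapping starts. PUDP encodes a phosphatase of pseudouridine monophosphate, and STS encodes steroid sulfatase, which releases steroids from their sulfates. Their shared stretch from 4490871 to 4493492 held 217 CpGs at 3.89% on PacBio and 1.94% on ONT. PNPLA4, a lipase gene of the patatin-like family, and LOC101902122 shared the stretch from 5206666 to 5208184, with 112 CpGs at 4.55% and 2.36%. The start of PNPLA4 lay 436 bp outside it, in a window of 15 CpGs at 75.7% on PacBio, and over 1 kb on both sides of it 44 CpGs averaged 46.5% and 36.6%. Within 500 bp of it the PacBio level was 79.8%, and within 2 kb it was 28.1%. The start of LOC101902122 lay inside the stretch.

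At ANOS1 the stretch ran from 5893363 to 5896220 with 235 CpGs at 3.98% on PacBio and 1.96% on ONT. At TBL1X, which encodes a subunit of a transcriptional corepressor complex, it was the longest of all, 5333 bp from 6534225 to 6539556, with 394 CpGs at 6.26% and 2.03%. Its 5 adjacent dense windows were at 11.4%, 7.14%, 6.44%, 6.47% and 3.91% on PacBio. The PacBio depth there was only 14 to 23 reads per CpG, against 36 in the flanks 5 to 10 kb away, and the Wilson interval of the whole stretch reached 26.98%. From the estimated read counts in place of the score, the PacBio level of the stretch was 3.07%. On the same windows ONT gave 1.31% to 7.61%.

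**Figure D4:**
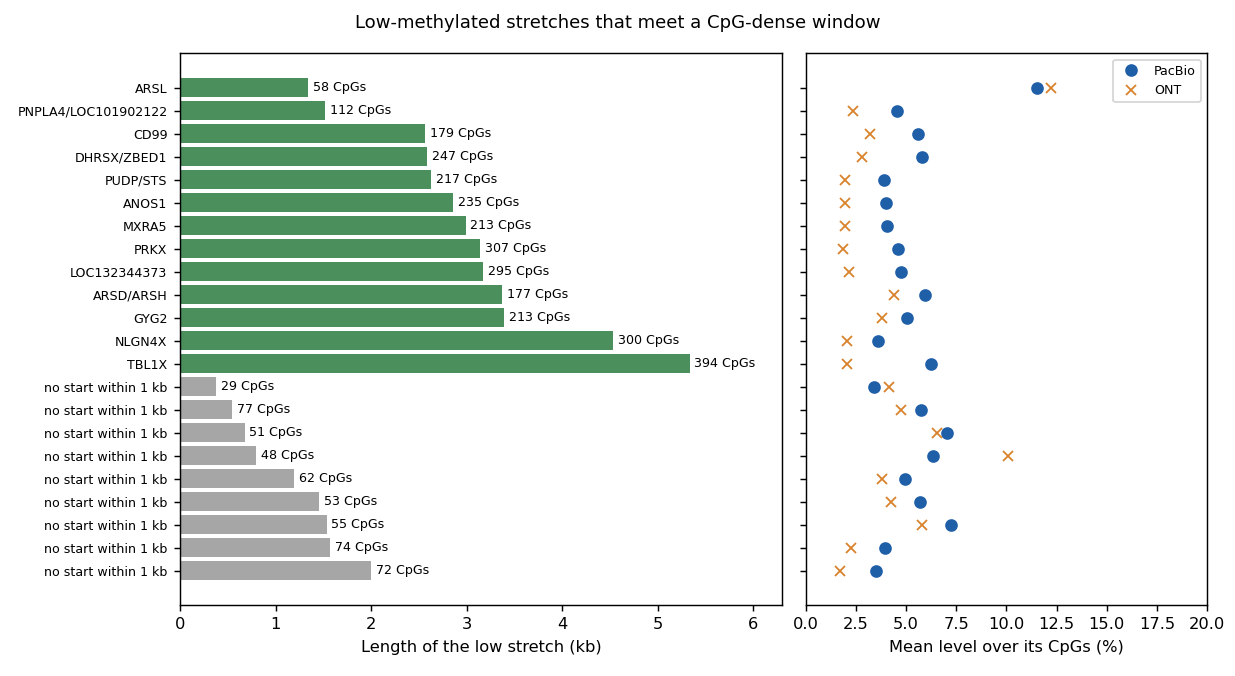
Length in kb of the 22 low stretches that met a CpG-dense window, with their number of CpGs (left), and their mean level in percent on PacBio and ONT (right). Green bars are the 13 stretches within 1 kb of a protein-coding gene start and grey bars the other 9. The stretch at TBL1X is the longest with 5333 bp, and that at ARSL has the highest PacBio level with 11.5%.

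The start of XG stood apart from these. XG encodes the glycoprotein of the Xg blood group. Its window 1352001-1353000 held 45 CpGs at 60.02% on PacBio and 41.5% on ONT. Within it, 5 CpGs were under 20% on PacBio, 28 were between 20% and 80%, and 12 were at 80% or more. ONT minus PacBio was -18.5 points, the largest difference among the dense windows. Over 1 kb on both sides of the start, 77 CpGs averaged 53.3% and 38.3%. No low stretch was found there.

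The genes without a dense window at their start encode lipocalins that carry small hydrophobic molecules. The starts of BOS2D, the gene of a cattle dander allergen, were at 84.3% and 75.2% on PacBio over 1 kb on both sides. Those of OBP, the gene of an odorant-binding protein, were at 66.7%, 55.9% and 87.4%. These values rest on 20 to 34 CpGs each, against 44 to 249 at the 17 genes with a low dense window. The copies of BOS2D and of OBP may share reads with each other, so their values are uncertain.

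Of the low dense windows, 7 lay over 5 kb from every annotated start of any gene type, at distances of 7.97 to 134 kb. Their levels ran from 3.65% to 12.1% on PacBio and from 1.22% to 9.87% on ONT. The windows directly beside them had a median of 65.1% on PacBio.

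The lowest of these 7 was 1519001-1520000, with 55 CpGs at 3.65% on PacBio and 1.22% on ONT. The window 994001-995000 was at 11.3% and 8.78%, and the low stretch it belongs to covered 674 bp with 51 CpGs at 7.03%. The window 1810001-1811000 was at 6.26% and 5.13%, and 2355001-2356000 at 11.1% and 8.07%. The window 2251001-2252000 read higher on ONT than on PacBio, at 9.87% against 6.48%. The window 6419001-6420000 was at 9.17% and 4.12%, at a depth of 31 PacBio reads per CpG. The remaining one, 1478001-1479000 inside ARSH, was at 12.1% and 9.79%.

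The window in ARSH had an unusual arrangement of CpGs. Of its 90 CpGs, 52.8% of those with room for it had another CpG exactly 27 bp downstream, the highest such share at any spacing among the dense windows described. Its low stretch covered only 547 bp with 77 CpGs, or 141 per kb, more than any other low stretch. The next windows by this share were of both groups. The window 1037001-1038000 in DHRSX had a share of 47.2% at 74 bp and stood at 93.4% on PacBio, and 1430001-1431000 in ARSD had 40.8% at 36 bp and stood at 93.9%. The window 1248001-1249000 at the start of DHRSX and ZBED1 had 34.1% at 24 bp and stood at 6.59%. Whether reads were placed unevenly among repeat units was not tested.

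Dense windows of both groups lay mostly inside genes. Of 160 dense windows, 110 (68.8%) were inside a protein-coding gene, against 29.2% of all windows. The share was 79 of 113 (69.9%) for high windows and 27 of 38 (71.1%) for low ones. The 85 dense windows in gene bodies, away from starts, included 78 high ones, and 47 were at 90% or more on PacBio. Of the 35 dense windows between genes, 24 were high and 7 were at 90% or more. Within 5 kb of the end of a protein-coding gene and away from starts, there were 22 of the 113 high windows (19.5%), against 3.89% of all windows.

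The highest windows were 1234001-1235000 in ZBED1 and DHRSX (96.2% on PacBio, 90.1% on ONT), 1567001-1568000 (96.0%, 89.3%) and 1568001-1569000 (95.5%, 88.5%) in MXRA5, 1728001-1729000 in PRKX (95.4%, 86.6%) and 1333001-1334000 in CD99 (95.4%, 84.5%). The first of them belonged to a run of 4 adjacent dense windows, 1232001-1236000, with 303 CpGs at a mean of 94.0% on PacBio. This run began 924 bp from the annotated end of ZBED1, at the other side of the gene from its low stretch. In the 5 longest genes, the dense windows away from the start had PacBio medians of 88.9% for 7 windows of NLGN4X, 89.8% for 10 of TBL1X, 90.7% for 11 of DHRSX, 84.4% for 6 of ANOS1 and 82.9% for 3 of STS. The 7 windows of NLGN4X included 2 low ones, which belong to its long low stretch.

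The 9 intermediate windows differed in their make-up. Their standard deviations over CpGs were 19.0 to 38.1 points. In 1278001-1279000, 58 of 67 CpGs were between 20% and 80% on PacBio, and in 867001-868000, 36 of 47 were. The window 866001-867000, in a pseudogene of ASMTL, was at 48.3% with a standard deviation of 38.1 points, and held the edge of a low stretch of 373 bp with 29 CpGs at 3.42%. Its neighbour 867001-868000 was at 36.3%. Within and beside LOC132344373, 1278001-1279000 was at 40.8%, 1282001-1283000 at 50.4% and 1274001-1275000 at 55.0%, and the body of that gene was the least methylated among the 17 genes with a low dense window within 1 kb of the start, at 65.4%. The others were 1605001-1606000 at 35.4%, the edge window of PRKX, and 6652001-6653000 at 56.8% and 6770001-6771000 at 48.7% in TBL1X.

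The levels of the dense windows ran together on both platforms. Over the 165 windows Pearson's r was 0.995 and Spearman's rho 0.949, as a description of windows that share a sample and whose 2 groups set most of r. Among the 117 high windows alone r was 0.940, and among the 39 low windows it was 0.801. ONT minus PacBio averaged -7.96 points (SD 4.58 over windows), against -10.5 points in the other windows. The mean was -2.21 points in low windows and -9.85 points in high windows. None of the 165 windows was apart by 20 points or more, against 1.16% of all windows. The 39 low windows could not be that far apart, since they lay under 20% on both platforms. For 153 of the 165 windows both platforms gave the same class, and for 5113 of the 5694 windows with 5 to 39 CpGs, a similar share.

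The windows with the largest differences were few. After XG, ONT minus PacBio was -17.6 points in 5693001-5694000 in ANOS1 (72.2% on PacBio, 54.7% on ONT) and -16.8 points in 886001-887000 in the ASMTL pseudogene (86.3%, 69.5%). Among high windows ONT was above PacBio at 3418001-3419000 in NLGN4X only, by 11.9 points (75.2%, 87.1%). This window also had the highest PacBio depth of the 165, 132 reads per CpG, against 90 to 94 in the 6 windows around it, where ONT minus PacBio was between -10.9 and -3.48 points. The part of this extra depth in the difference was not tested.

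**Figure D5:**
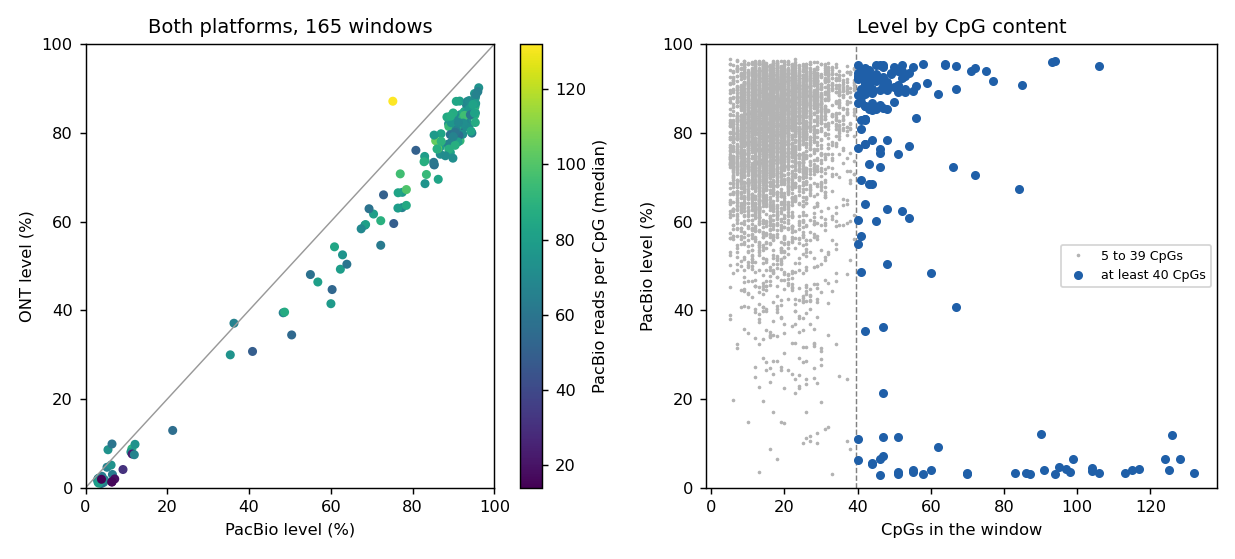
Left, ONT level against PacBio level in percent for the 165 CpG-dense windows, coloured by median PacBio reads per CpG, with the line of equal values; nearly all windows lie below it and 1 high window, in NLGN4X, lies clearly above. Right, PacBio level in percent against the number of CpGs per window for dense windows (blue) and windows with 5 to 39 CpGs (grey), with 21 of the 26 windows of 80 or more CpGs in the low group.

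The ONT strand rows were compared as window means, not CpG by CpG. The mean of the lower rows and that of the upper rows of a window were apart by a median of 0.294 points in low windows and 2.35 points in high windows. In 5 windows they were apart by 10 points or more, the most in 1037001-1038000 in DHRSX, at 76.6% and 92.3%. Of the 6302 ONT rows in low windows 42.7% were exactly 0, as were none of the 11684 rows in high windows and 0.174% of those in the other windows. Since the file has no depth, a 0 may be a measured value or a missing call. Without the CpGs that have a 0 row, 37 windows were low on PacBio and 39 on ONT.

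Depth limits the precision of the low windows. In the 32 low windows described with at least 50 reads per CpG, the upper end of the Wilson interval was 7.999% to 21.2%. In the 6 with fewer reads, all at TBL1X or in 6419001-6420000, it was 19.4% to 26.8%. The intervals cover counting error only.

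The dense windows were unevenly spread. The first 1 Mb of the inner PAR held 91 of them, or 9.18% of its windows, while the other stretches of 1 Mb (the last one slightly shorter) held between 0.522% and 2.60%. The first held 21 of the 39 low windows among its 91 dense windows, and the last held 9 among 25. Over all 165 dense windows the low share was 23.6%, so the 21 go with the number of dense windows there. In the first, dense windows had a PacBio median of 86.9%, beside 84.9% over all its windows.

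Dense windows elsewhere on the chromosome gave a point of comparison, with no test. In the outer PAR 41 of 183 dense windows (22.4%) were low on PacBio, close to the 23.6% of the inner PAR, but 33 were intermediate against 9. On the short arm of the male-specific region, 26 of 3122 dense windows (0.833%) were low, and on its long arm 5 of 359 (1.39%). Over all windows with at least 5 CpGs, the low share was 7.78% in the outer PAR, 0.837% on the short arm and 3.52% on the long arm, against 1.04% in the inner PAR. The PacBio depth there was lower, with medians of 31 and 45 reads against 73. Over the whole chromosome 6359 windows met the CpG rule.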

How the data were processed

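Lung DNA was measured on PacBio and ONT, with 1 processed file per platform. For PacBio, the authors called CpG methylation on HiFi reads with Primrose, aligned them with pbmm2 and summarised them with aligned_bam_to_cpg_scores. Each CpG of the deposited file has a score in percent, a read count, and model-based estimated counts of methylated and unmethylated reads. For ONT, the authors called 5-methylcytosine with Dorado, aligned with Winnowmap and summarised with modbam2bed, leaving out calls between their thresholds. Deposited ONT values are in percent, 1 per strand, without depth. The study replaced missing values by 0 in its PacBio account, and whether this holds for ONT is not given in the sources used here.

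The files run in opposite directions, and positions were converted to 1 direction from the short-arm end. Windows of 1 kb from 850001 were kept as dense with at least 40 CpGs. Levels are unweighted means over CpGs with at least 10 PacBio reads. The members, classes (20% and 60%), gene list and naming rule were chosen with earlier results of these data known. Named were all protein-coding genes starting in the inner PAR, the runs of most adjacent windows, the windows with the most CpGs, the lowest and highest levels and the largest platform differences, and low windows over 5 kb from any start. Intermediate windows, windows with regular CpG spacing and the second stretch near PRKX were singled out after their values were seen. One gene is not reported here. With 1 library per platform no test was run. Wilson intervals at 95% used the mean estimated modified count and mean depth per CpG. Window and stretch calls were tested on simulated levels at the real CpG positions. Alternatives changed the depth minimum, ONT strand row, PacBio estimate, weighting, zeros, CpG minimum, window offset, class limits and distance to starts. Python 3.11.15, pandas 2.3.3 and scipy 1.17.1 were used.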

Additional observations from a re-analysis of the deposited data

How the results depend on the processing

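Both low and high dense windows were found under every alternative run. With a minimum of 4 or 20 reads, with estimated counts in place of scores, with weights by reads, without CpGs that have an ONT 0, with either ONT strand row and with windows shifted by 500 bp, no count or mean of the dense windows changed beyond its limit (1.5 times for a count, the Wilson interval at the median depth or number of windows for a level or share, 1 SD over windows for the platform difference), except that 1 window instead of 0 was apart by 20 points or more with the lower ONT row alone. The minimum of 4 reads could not change any value, because all CpGs of the inner PAR had at least 10 PacBio reads. The shift gave 164 dense windows, 35 of them low on PacBio.

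Changing the CpG minimum changed the members themselves. With at least 30 CpGs there were 547 windows, with 458 high and 44 intermediate on PacBio and 407 and 94 on ONT, 3 were apart by 20 points or more, and 5.73% were at gene starts. With at least 60 CpGs there were 43 windows, with 25 low, 16 high and 2 intermediate on PacBio and 25, 15 and 3 on ONT. Their mean levels were 38.1% and 32.9%, 48.8% were at gene starts, 83.3% of the low windows were at gene starts on both platforms, and 100% of the windows at starts were low. With low defined as under 10%, 14 windows were intermediate on PacBio. Distances of 500 bp or 2 kb to the start left the shares at gene starts within their intervals. Of the values for single gene starts, 134 stayed within a Wilson interval at the median depth of the dense windows, 73 reads, and 19 did not. The 19 were mostly where the distance to the start changed or where CpGs with an ONT 0 were left out. For TBL1X, with 16 reads, that interval is narrower than its own depth would give.

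The levels rest on 1 animal and 1 library per platform. PacBio depth limits the values at TBL1X, where no CpG within 1 kb of the start reached 20 reads, so that alternative gave no value there, and no ONT depth is known. No paired analysis was possible because each platform has a single library and no result comes from a test.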
